A study of Mus musculus with 8 samples.

Results

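The TNF, lymphotoxin and Fas ligand systems were followed through 8 genes of the 32285 in the count table: the ligands Tnf, Lta, Ltb and Fasl, the receptors Tnfrsf1a, Tnfrsf1b and Fas, and the feedback inhibitor Tnfaip3. They were taken by name, and all 8 were found. The cells came from grafts of NIT-1, an insulin-producing beta cell line of the NOD mouse, that were either wild type (WT) or carried a mutation of Rnls (Rnls mut), the gene of the enzyme renalase. Both kinds of NIT-1 cells were injected under the skin of opposite flanks of NOD.scid mice, which lack T and B cells of their own and keep innate cells. All mice then received splenocytes of recently diabetic NOD mice into the blood, and grafts were taken 10 or 17 days later. Living CD45+ cells of 4 grafts per genotype and day were tagged with hashtag antibodies, pooled and captured in 1 droplet library per genotype and day, so that the library cannot be told apart from the group. The NIT-1 cells themselves were outside the sort, so Rnls in these libraries is no check of the genotype labels, and host innate cells were not told apart from transferred ones. The labels give no age or sex, and whether the Rnls mut cells were a single clone is not given in the sources used here.

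TNF, made as a membrane protein by Tnf and released by a protease, binds TNFR1 (Tnfrsf1a), found on many cell types, and TNFR2 (Tnfrsf1b), found mainly on leukocytes and endothelium. Lymphotoxin alpha (Lta) binds the same receptors as a soluble trimer and, joined to lymphotoxin beta (Ltb), stays on the cell surface as the ligand of the lymphotoxin beta receptor. Fas ligand (Fasl) on cytotoxic lymphocytes kills cells that carry Fas through caspase-8, and beta cells are a classical target of both TNF and Fas ligand in autoimmune diabetes. A20 (Tnfaip3) is an NF-kB target that switches TNF receptor signaling off again.

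In GENCODE vM21 (GRCm38) Ltb (chromosome 17, 35194439 to 35196320, plus strand), Tnf (17, 35199381 to 35202007, minus strand) and Lta (17, 35203165 to 35205351, minus strand) lie side by side within 10913 bases. The others are apart: Tnfrsf1a on chromosome 6 (125349362 to 125362484, plus), Tnfrsf1b on 4 (145213463 to 145246870, minus), Fasl on 1 (161780689 to 161788495, minus), Fas on 19 (34290666 to 34327772, plus) and Tnfaip3 on 10 (19000910 to 19015657, minus). The 250 bases before the RefSeq start of all 8 genes (9 promoters) were searched on both strands for the NF-kB consensus, which 3.9% of 32851 RefSeq promoters of the same length hold (1281 promoters). Ltb and Tnfaip3 held it and are shown for that reason, and no match in the other 6 says only that these letters are not in that window. The stretches free of annotated exons are shown with the matches in capitals, 5′ to 3′ on the gene's strand.
Ltb, chr17:35194257-35194438, plus strand, GRCm38.p6: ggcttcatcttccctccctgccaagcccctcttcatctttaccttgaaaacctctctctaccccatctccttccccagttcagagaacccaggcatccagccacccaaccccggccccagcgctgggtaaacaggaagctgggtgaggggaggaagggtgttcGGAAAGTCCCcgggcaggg
Tnfaip3, chr10:19015411-19015547, minus strand, GRCm38.p6: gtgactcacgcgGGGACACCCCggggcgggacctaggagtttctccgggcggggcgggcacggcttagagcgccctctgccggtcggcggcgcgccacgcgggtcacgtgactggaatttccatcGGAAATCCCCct
The Ltb match lay 87 to 78 bases before the start and read GGAAAGTCCC as printed, with the consensus on the other strand. The Tnfaip3 promoter shown held a sense match 125 to 116 bases before the start and a match 12 to 3 bases before it with the consensus on the other strand. The other Tnfaip3 promoter searched held no match. These starts are those of RefSeq and lie inside the GENCODE spans of both genes given above. The Tnfaip3 stretch shown therefore lies within its GENCODE span. A match is a run of letters, not a measured binding site.

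The table held 22441 cells in 12 deposited cell types and 29 clusters, with 7617 cells in the WT and 6652 in the Rnls mut library at day 10, and 2690 and 5482 at day 17. Grafts held 1516 to 1967 cells at day 10 and 350 to 1932 at day 17. Their totals ran from 1742746 to 9729233 UMIs (unique molecular identifiers, counted RNA molecules), and the median cell held 3382, 3453.5, 5902 and 3083 UMIs in these 4 libraries. A barcode occurred in more than 1 library 42 times (84 cells). Levels are CPM, the gene's UMIs in every 1000000 UMIs of the summed cells of a type in a graft, for grafts with at least 10 such cells, and are compared between cell types or groups but not between genes. Deposited types carried their markers, such as Foxp3 in Treg (median 307 CPM) and S100a9 in granulocytes (37768). Markers went against the label Stem-Progenitor: in that type Kit had a median of 1.74 and Cd34 of 0 CPM, against 1083 for the cycling gene Top2a, 571 for Cd3e and 3181 for Gzma. It is called by its deposited label only. Types come from the authors' clustering of the same values, so differences between types are described without a test.

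Tnf had its highest CPM in granulocytes and was most plentiful in macrophages. Its level in granulocytes ranged over grafts from 79.8 to 1071 CPM with a median of 738 (12 grafts), and all 5 grafts with both types had more Tnf in granulocytes than in ILC-1. ILC-1 followed with 0 to 107 CPM (median 73.8, 8 grafts). CD4 T cells (28.3 to 76.1, median 44.7) and macrophages (29.7 to 110, median 42.2) changed places between the days, with CD4 T cells above macrophages in 1 of 8 grafts at day 10 and in 6 of 8 at day 17. CD8 T cells, Treg, monocytes and dendritic cells (DC) had medians of 24.5 to 32.6 CPM and also changed places between grafts. NK cells were lowest, with a median of 7.02 CPM and 4 of 16 grafts at 0. The 13 mast cells held 15 Tnf UMIs in 38949, or 385 CPM, too few to place.

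Cells of different depth were compared after thinning each to 1000 UMIs. At this depth 28.3% of granulocytes held a Tnf UMI (33.3% unthinned, at a median of 1319 UMIs per cell), against 4.02% of macrophages (15.8% unthinned, median 4719 UMIs) and 0.799% of NK cells. Granulocytes made up 369 of the cells and held 9.78% of the 4131 Tnf UMIs. Macrophages held 42.9%, CD4 T cells 17.0% and monocytes 9.83%. The share of macrophages ran from 12.0% to 70.9% over grafts, with medians of 33.9% (WT) and 28.0% (Rnls mut) at day 10 and 58.8% and 61.0% at day 17. Over the same days the share of macrophages among cells went from medians of 15.3% and 14.7% to 43.0% and 60.7%.

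Tnf was uneven within types. Among deposited clusters the granulocyte cluster 18 held 708 CPM over all grafts, CD8 cluster 26 156 CPM, macrophage cluster 13 86.2 CPM and DC cluster 25 84.7 CPM. Macrophage cluster 13 had 509 cells at day 10 and 42 at day 17.

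The lymphotoxins lay mostly in lymphocytes. Lta was sparse, with 585 UMIs in all, 56.4% of them in CD4 T cells, 25.3% in the type labelled Stem-Progenitor and 8.38% in CD8 T cells. CD4 T cells had a median of 15.2 CPM (0 to 70.1), ILC-1 10.2, Treg 9.23 and CD8 T cells 5.9, and the median was 0 in DC, macrophages, granulocytes, NK cells and monocytes. Granulocytes were at 0 in all 12 grafts. After thinning, 1.25% of CD4 T cells and 0.00673% of macrophages held an Lta UMI.

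Ltb was highest in Treg, at 843 to 2470 CPM (median 1109, 14 grafts), above ILC-1 in all 7 grafts with both. ILC-1 (median 603), CD4 T cells (580) and CD8 T cells (541) overlapped, with CD4 above CD8 in 4 of 8 grafts at day 10 and 7 of 8 at day 17. Granulocytes were the exception among myeloid cells, at 302 to 916 CPM (median 454), whereas DC, monocytes and macrophages had medians of 7.88, 4.13 and 1.71 CPM. NK cells lay between, at 14.9 to 250 CPM (median 115), above DC in 16 of 16 grafts. In shares of thinned cells with a UMI, Treg reached 59.2%, granulocytes 31.5% and macrophages 0.195%, the last serving as the background of free RNA. Of the 20483 Ltb UMIs, CD4 T cells held 47.2%, CD8 T cells 27.0% and Treg 9.06%.

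Fasl was shared by killer lymphocytes. CD8 T cells (232 to 415 CPM) and NK cells (160 to 494 CPM) had the same median of 308 CPM, with CD8 above NK in 9 of 16 grafts. ILC-1 (median 184) were below NK cells in 8 of 8 grafts, and CD4 T cells (133) and the Stem-Progenitor type (94.5) came next. Treg held 26.1 CPM, and the myeloid types had medians of at most 0.447 CPM. In thinned cells, 27.2% of NK cells, 26.8% of CD8 T cells and 12.1% of CD4 T cells held a Fasl UMI against 0.0307% of macrophages. CD4 T cells, being many, held 28.0% of the 7589 UMIs, after CD8 T cells with 39.4% and before NK cells with 17.6%.

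Of the receptors, Tnfrsf1a marked the myeloid side. Granulocytes were highest in CPM at 42 to 610 (median 457) and lay above monocytes in 10 of 12 grafts. They held less RNA per cell (median 1319 UMIs) than monocytes (4530). Unthinned, 37.1% of granulocytes and 46.5% of monocytes held a Tnfrsf1a UMI, and after thinning 28.9% and 14.2%. Monocytes (106 to 243, median 153) lay above macrophages (79.5 to 118, median 94.9) in 15 of 15 grafts, and macrophages above DC (26.5 to 84.5, median 63.6) in 16 of 16. Lymphoid medians ran from 23.2 CPM in ILC-1 to 4.45 in CD4 T cells and 0 in Treg, of which 9 of 14 grafts were at 0. Macrophages held 58.5% and monocytes 25.4% of 6585 UMIs. Monocytes held 44.2% and 38.1% (medians of WT and Rnls mut grafts) at day 10 and 5.35% and 4.63% at day 17, when macrophages held 74.5% and 87.3%.

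Tnfrsf1b was spread over both sides. Granulocytes had 0 to 399 CPM (median 292) and were above Treg, at 67.4 to 367 CPM (median 209), in 8 of 11 grafts. Unthinned, 33.1% of granulocytes held a Tnfrsf1b UMI, against 42.2% of macrophages and 40.8% of Treg. After thinning these shares were 24.1%, 11.9% and 18.9%. Treg were above NK cells (130 to 313, median 161) in 12 of 14 grafts. ILC-1, CD8 T cells, monocytes and macrophages had medians of 103 to 132 CPM and could not be ordered, and DC were lowest with 37.5.

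Fas was highest in granulocytes, at 160 to 679 CPM (median 454), above NK cells in 12 of 12 grafts. NK cells, Treg, CD4 T cells, CD8 T cells and ILC-1 followed with medians of 98.7 to 130 CPM, overlapping each other. Macrophages held 60.0 and DC 56.6 CPM. Within DC the level was uneven: 239 CPM in cluster 21, 80.2 in cluster 17 and 12.8 in cluster 19.

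Tnfaip3 was high in lymphocytes. NK cells (378 to 1343 CPM, median 580), ILC-1 (503), CD4 T cells (426), CD8 T cells (421), granulocytes (390) and Treg (328) formed an overlapping upper set. Treg lay above macrophages (74.5 to 197, median 113) in 14 of 14 grafts. Within CD4 T cells, cluster 8 had 734 CPM against 225 in cluster 0 and 240 in cluster 7.

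**Figure D1:**
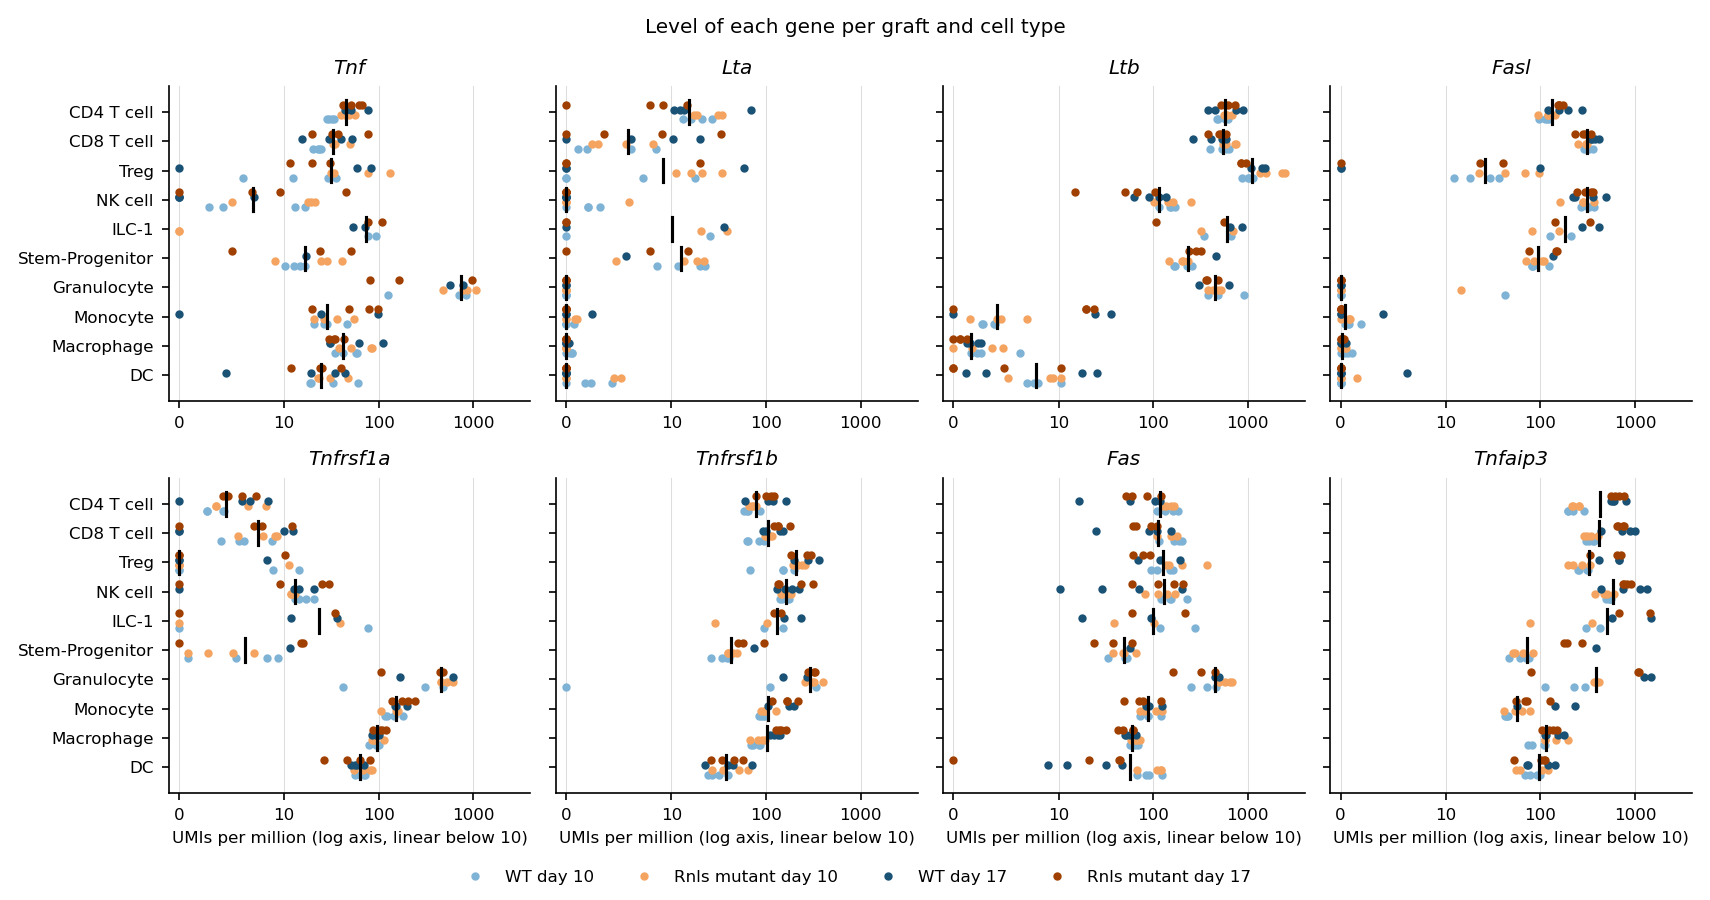
Level of each of the 8 genes (CPM, drawn as UMIs per 1000000, log axis that is linear below 10) per graft with at least 10 cells of a type, coloured by genotype and day, with the median over grafts as a black bar. In CPM, granulocytes lead for Tnf (median 738), Tnfrsf1a (457), Tnfrsf1b (292) and Fas (454), and Treg for Ltb (1109). CD8 T cells and NK cells share the highest Fasl (308). CPM is relative to the UMIs of a type, and granulocytes held a median of 1319 UMIs per cell.

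**Figure D2:**
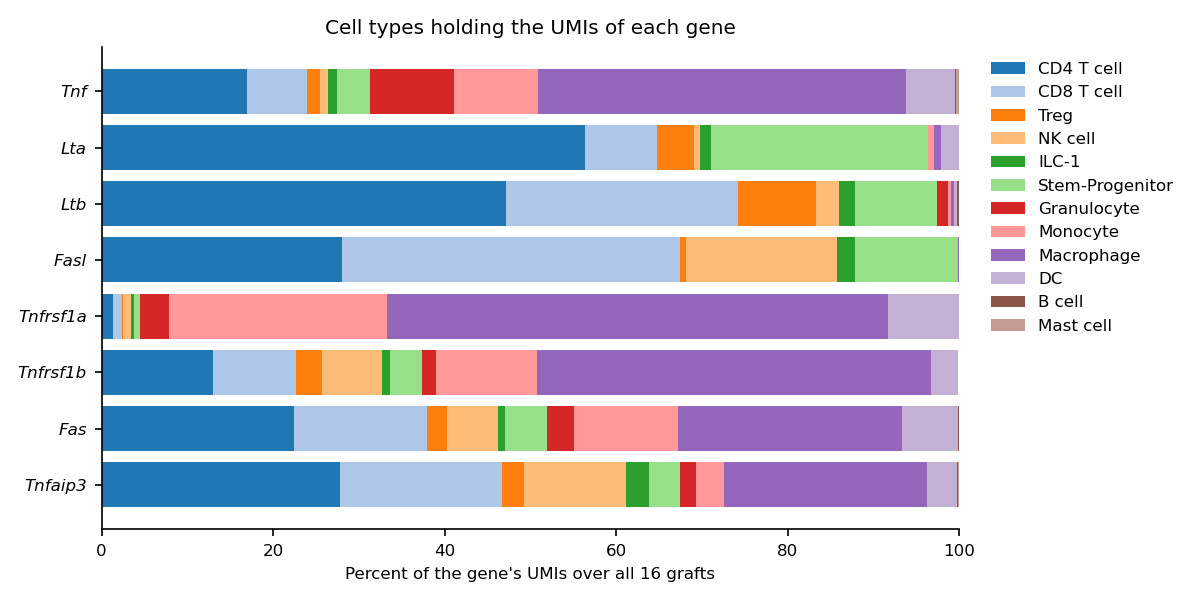
Percent of each gene's UMIs over all 16 grafts that lay in each cell type, as stacked bars. Macrophages hold the largest part of Tnf (42.9%), Tnfrsf1a (58.5%) and Tnfrsf1b (45.9%), and CD4 T cells the largest part of Lta (56.4%) and Ltb (47.2%).

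The genes with the most similar profile over 10 cell types were, by Pearson correlation of mean log2(CPM + 10) among 9574 genes, Tmco6 (0.956), Pgghg and Rnd1 for Tnf, Podnl1 (0.963), Dkkl1 and Lysmd2 for Lta, and Rac2 (0.969), Rab27a and Dgat1 for Ltb. For Fasl they were Fhl2 (0.989), Ctsw and Gm33104. For the receptors they were Fgr (0.989), Nfe2l2 and Id1 with Tnfrsf1a, Traf3 (0.964), Arid5b and Snx18 with Tnfrsf1b, and Gm20559 (0.98), Resf1 and Mxd1 with Fas. Tnfaip3 was most like Ddx5 (0.973), Rbm39 and Tgoln1. The points share their grafts and libraries, so these are descriptions.

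The genotype comparison asked whether immune cells of Rnls mut grafts differed from those of WT grafts. UMIs were summed per graft and tested with edgeR's quasi-likelihood test, with p-values adjusted over all genes of a cell type (Benjamini-Hochberg, threshold 0.05). The p-values measure the spread between grafts. Members passed the filter on low counts in 49 pairs of gene and cell type over 9 types. At day 10, 1 of 49 pairs was called, Ltb in Treg, while 0.142% of all 45651 tests were called. At an unadjusted p under 0.05 there were 8 pairs, beside 6.32% of all tests. At day 17 none was called (0.18% of all tests), with 3 pairs at an unadjusted p under 0.05 beside 6.75% of all tests. For the mean of both days none was called either (0.011%), with 4 pairs beside 5.59%. The difference between the genotype effects of both days was called for 1 pair, again Ltb in Treg (0.383%), with 7 pairs at an unadjusted p under 0.05 beside 7.95% of all tests. In all CD45+ cells none of the 8 genes was called at day 10 (0.0717% of genes) or day 17 (0.0318%). At an unadjusted p under 0.05 there was 1 of them on each day, beside 887 (day 10) and 1030 (day 17) of all 12560 genes.

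Ltb in Treg was 1035, 1134, 858 and 995 CPM in the WT grafts at day 10, from 92 to 169 UMIs and 29 to 61 cells each. In Rnls mut grafts it was 2470, 2311, 1563 and 1356 CPM, from 121 to 363 UMIs and 21 to 82 cells. The lowest Rnls mut graft was above the highest WT graft, and 6.44% of all genes tested in Treg kept the genotypes apart in either direction. The log2 difference was 0.91 ± 0.16 (SE, 1.88-fold, adjusted p = 0.00231, edgeR). It was called in every alternative with enough cells, where it ran from 0.77 to 1.05 with adjusted p from 0.000115 to 0.0344.

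At day 17 the order was turned round. WT grafts had 1525, 1085 and 1399 CPM and Rnls mut grafts 843, 843 and 946 CPM, with 1 graft of each genotype left out for having under 10 Treg. These were 796 CPM in WT (17 UMIs, 6 cells) and 531 CPM in Rnls mut (7 UMIs, 8 cells). The 3 grafts kept per genotype did not overlap, in a type where 12.3% of genes did not, whereas the WT graft left out lay below the Rnls mut values kept. The log2 difference of -0.56 ± 0.20 (SE) was not called (adjusted p = 0.297). The change of the genotype difference between days was -1.47 ± 0.25 (SE, adjusted p = 0.000806, edgeR). In Rnls mut grafts Ltb in Treg fell by 1.16 on the log2 scale from day 10 to day 17 (SE 0.18, adjusted p = 7.61e-05), and in WT grafts the value was 0.32 (SE 0.18, adjusted p = 0.286).

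In Treg 6 of 2331 genes were called at day 10 (0.257%). Ltb and H2-D1 (log2 difference 0.46) were higher, and the ribosomal genes Rpl35 (-0.77), Rps29 (-0.50) and Rps28 (-0.47) and the predicted gene Gm10076 (-0.82) were lower. For the change of the genotype difference 37 genes were called (1.59%). Those that moved opposite to Ltb included Rps29 (1.07), Rps28 (1.07) and Rpl35 (1.40). They also included Ccl8 (4.257), with the smallest adjusted p, Lyz2 (2.816), H2-Aa (2.765), H2-Ab1 (2.522) and Cd74 (1.556). Among those that moved with Ltb were H2-D1 (-0.772), Socs1 (-2.026), Cd69 (-2.3) and Klf2 (-1.933). The summed level of 5 macrophage markers in Treg had medians of 31.9 (WT) and 32.0 CPM (Rnls mut) at day 10 and 33.4 and 220 CPM at day 17, and its part in the day 17 values was not tested. With at least 20 cells per graft the fit of Treg could not be made.

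Ltb in other T cells was closer. CD4 T cells had 475, 615, 479 and 568 CPM in WT and 600, 676, 556 and 583 CPM in Rnls mut grafts at day 10, which overlap (log2 difference 0.13, adjusted p = 0.916). CD8 T cells had 627, 594, 398 and 539 against 750, 736, 589 and 542 CPM, also overlapping (0.24, adjusted p = 0.796).

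The Tnf values of Rnls mut grafts at day 10 lay above those of WT grafts in both main T cell types, without passing the test. CD4 T cells had 31.8, 33.7, 28.3 and 29.8 CPM in WT and 55.4, 48.5, 40.3 and 44.0 CPM in Rnls mut grafts. The groups did not overlap, as for 7.89% of genes in CD4 T cells (log2 difference 0.54 ± 0.17 SE, adjusted p = 0.219). CD8 T cells had 22.7, 24.6, 20.1 and 23.3 against 34.2, 49.5, 33.2 and 33.7 CPM, again apart, as for 7.04% of genes (0.66 ± 0.22 SE, adjusted p = 0.352).

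In macrophages Tnf overlapped, at 57, 41.7, 58.8 and 34.5 CPM in WT and 82, 83.9, 38.4 and 51 CPM in Rnls mut grafts (0.42, adjusted p = 0.879). Over all CD45+ cells, where fewer cells of a type and less RNA per cell cannot be told apart, Tnf was 37.4, 26, 35.4 and 26.2 against 52.7, 62.3, 38.1 and 43.1 CPM. These grafts did not overlap, as for 8.66% of genes (0.62 ± 0.20 SE, adjusted p = 0.397). The summed level of 14 early response genes, which rise during tissue digestion as well as with activation, moved the same way, from 3687 to 5057 CPM in WT and from 5130 to 6600 CPM in Rnls mut CD4 T cells, with 0 of 14 called. Its part in the Tnf values was not tested. At day 10 granulocytes, the type highest in Tnf, were a median of 0.662% of cells in WT and 3.21% in Rnls mut grafts. They held medians of 2.57% and 13.5% of the Tnf UMIs. Their part in the Tnf values over all CD45+ cells was not tested either.

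In ILC-1, Tnf was under the filter, with 94.4 and 76.1 CPM in the WT grafts with at least 10 cells at day 10 (8 and 3 UMIs) and 0 in both Rnls mut grafts. At day 17 it was 71.4 and 53.8 CPM in WT and 77.7 and 107 CPM in Rnls mut grafts. Under 10 cells stood behind each remaining graft. With 2 grafts against 2 the exact permutation test gave p = 0.333 in each of 4 comparisons, the smallest p that this size allows.

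Fasl was not called between genotypes in the cells that held most of it. In CD8 T cells at day 10 it was 362, 304, 325 and 291 CPM in WT and 302, 309, 248 and 307 CPM in Rnls mut grafts (log2 difference -0.18, adjusted p = 0.73). In macrophages Tnfaip3 at day 10 was 112, 110, 74.5 and 81 CPM in WT and 197, 112, 145 and 113 CPM in Rnls mut grafts. The nearest grafts of both groups rounded to 112 CPM without overlapping, as for 4.64% of genes (0.57, adjusted p = 0.592). Of pairs under the filter, 19 with at least 20 UMIs were tested by exact permutation in 60 two-sided tests, and only Tnfrsf1a in NK cells at day 10 reached p = 0.0286, the smallest p possible for 4 against 4 grafts, with means of 16.3 CPM in WT and 12.3 CPM in Rnls mut grafts.

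**Figure D3:**
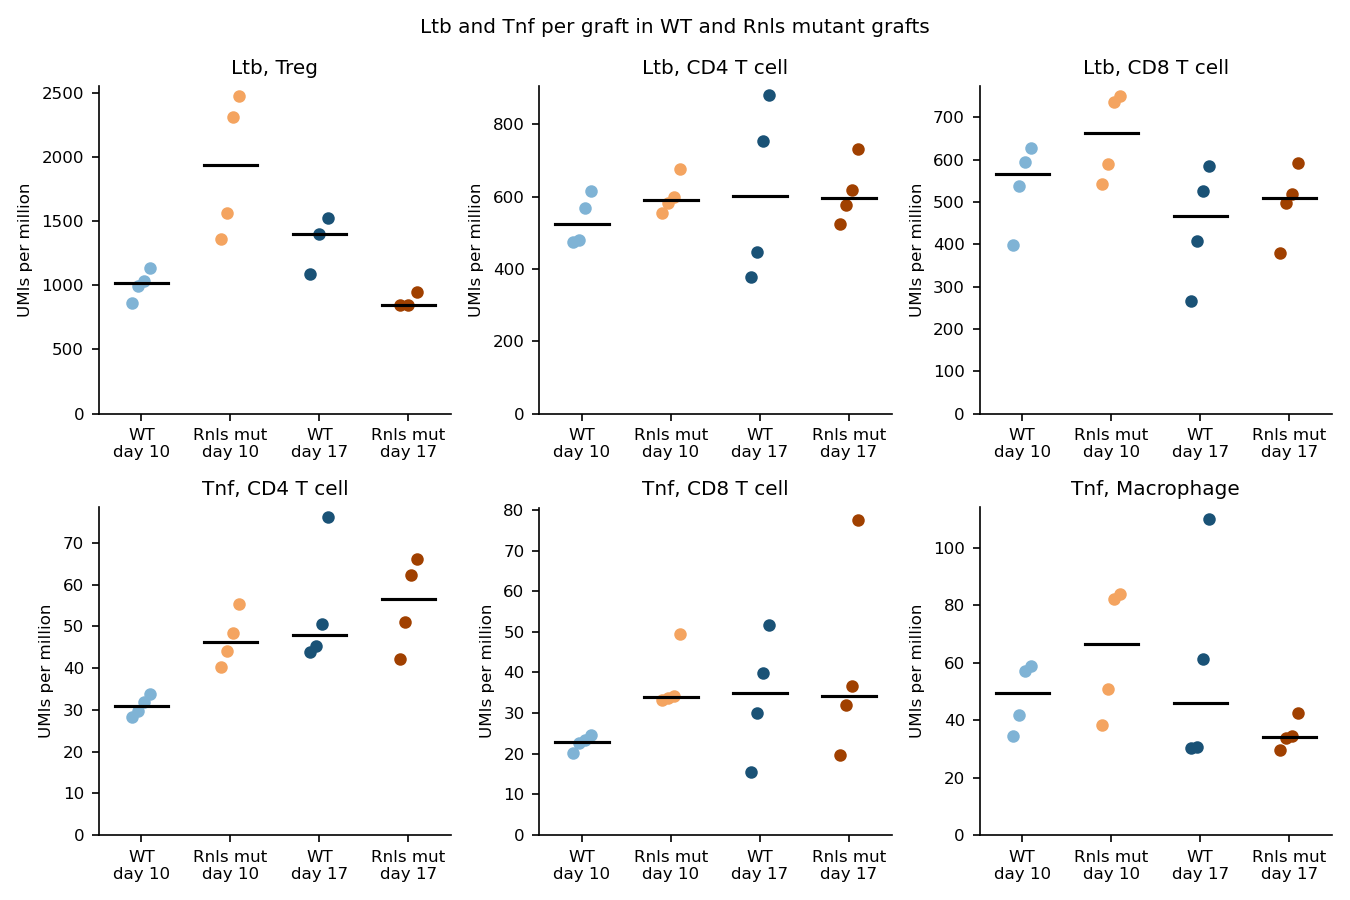
Level (CPM) of Ltb in Treg, CD4 and CD8 T cells and of Tnf in CD4 T cells, CD8 T cells and macrophages, one point per graft with the median as a bar, for each genotype and day. In Treg at day 10 the Rnls mut grafts (1356 to 2470) lie above the WT grafts (858 to 1134). At day 17 the Rnls mut grafts drawn lie below the WT grafts drawn, a difference that was not called (adjusted p = 0.297, edgeR). Grafts with under 10 cells of a type are not drawn. The WT graft left out in Treg at day 17 had 796 CPM, below the Rnls mut grafts drawn.

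Of the genes around these receptors, in lists on other ligands and receptors, release and mRNA decay, the receptor complex, the death branch and NF-kB with its feedback, none was called between genotypes at day 10 in CD4 T cells, CD8 T cells, Treg, macrophages or all CD45+ cells. The medians of the lists in these populations ran from -0.11 to 0.26 on the log2 scale, against -0.013 to 0.012 for all genes.

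Day 17 was compared with day 10 within each genotype and as the mean of both genotypes. Far more genes were called between days than between genotypes, so counts of members need that background. Day cannot be told apart from library in these counts. Of the 49 pairs, 14 were called in WT grafts (13.3% of all tests), 13 in Rnls mut grafts (16.9%) and 21 for the mean of both (28.0%), of which 14 were higher (13.9% of all tests) and 7 lower (14.0%) at day 17. In all CD45+ cells 6 of 8 genes were called for the mean, against 57.5% of all genes.

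Tnfaip3 rose in 7 of 9 cell types. In CD4 T cells it was 290, 195, 219 and 197 CPM in WT grafts at day 10 and 799, 590, 564 and 597 CPM at day 17. Rnls mut grafts had 256, 214, 219 and 254 CPM and then 621, 771, 679 and 563 CPM. All grafts of day 17 lay above all of day 10 in both genotypes, as did or fell below 20.3% (WT) and 24.3% (Rnls mut) of genes in CD4 T cells, with a log2 difference of 1.39 ± 0.09 (SE, 2.62-fold, adjusted p = 6.41e-12, edgeR).

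In CD8 T cells the WT values were 361, 368, 323 and 302 and then 997, 435, 888 and 729 CPM, and the Rnls mut values 289, 341, 308 and 407 and then 772, 668, 639 and 753 CPM (1.01 ± 0.12 SE, adjusted p = 6.06e-07). In Treg the log2 difference was 0.97 ± 0.18 (adjusted p = 0.000231) and in NK cells 0.70 ± 0.17 (adjusted p = 0.00853), where 1 WT graft of day 17 (442 CPM) lay below the 4 of day 10 (494 to 557). The days did not overlap in CD8 T cells of either genotype, as for 15.1% (WT) and 15.8% (Rnls mut) of genes. ILC-1 had 77.9 to 431 CPM at day 10 and 574 to 1476 CPM at day 17 (1.85 ± 0.44 SE, adjusted p = 0.0127), a call lost without Rnls mut day 17 replicate 2 or WT day 10 replicate 1 (adjusted p up to 0.107).

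Granulocytes had 111, 229 and 294 CPM in WT grafts at day 10 and 1255 and 1471 CPM at day 17, and 392, 369, 389 and 420 and then 79.8, 1082 and 1100 CPM in Rnls mut grafts (1.94 ± 0.34 SE, adjusted p = 0.00168). The 79.8 CPM was 1 UMI of 10 cells. Monocytes rose in WT grafts (1.61 ± 0.31 SE, adjusted p = 0.00739). Without WT day 17 replicate 1, which held 91 of that group's monocytes, this was not called at 0.62 (adjusted p = 0.582). In macrophages, at 0.05 (adjusted p = 0.786), and in DC the gene was not called.

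The early response list rose beside Tnfaip3, itself a quickly induced gene. In the mean of both genotypes 10 of its 14 genes were higher and 3 lower in CD4 T cells (median log2 difference 0.91, all genes 0.014), where 18.9% of all genes were higher and 17.6% lower. The counts were 8 and 3 in CD8 T cells (10.8% and 11.0% of all genes), 7 and 3 in NK cells (6.34% and 6.77%) and 7 and 0 of 13 in ILC-1 (7.51% and 8.25%). In macrophages, where Tnfaip3 was not called, 1 was higher and 4 lower (median -0.36, beside 25.3% and 25.1% of all genes). In CD4 T cells of Rnls mut grafts the summed list had medians of 6046 CPM at day 10 and 6433 CPM at day 17. Tnfaip3 in CD4 T cells rose by 1.41 in Rnls mut grafts (SE 0.13, adjusted p = 7.05e-09, edgeR). In WT grafts it rose by 1.37 (SE 0.13, adjusted p = 2.41e-08, edgeR). The part of the early response list in the Tnfaip3 values was not tested.

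The deposited clusters changed with day too: CD4 cluster 8, high in Tnfaip3, had 171 cells at day 10 and 989 at day 17, and cluster 0 went from 2013 to 97 cells. Over grafts with at least 10 cells of a cluster, the medians within cluster 8 were 702 and 693 CPM. Within cluster 7 they were 178 CPM at day 10 (132 to 226, 8 grafts) and 464 at day 17 (396 to 661, 5 grafts), and in cluster 0 225 and 350 CPM. In CD8 cluster 3 the median went from 330 to 725 CPM and in cluster 9 from 420 to 807 CPM.

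**Figure D4:**
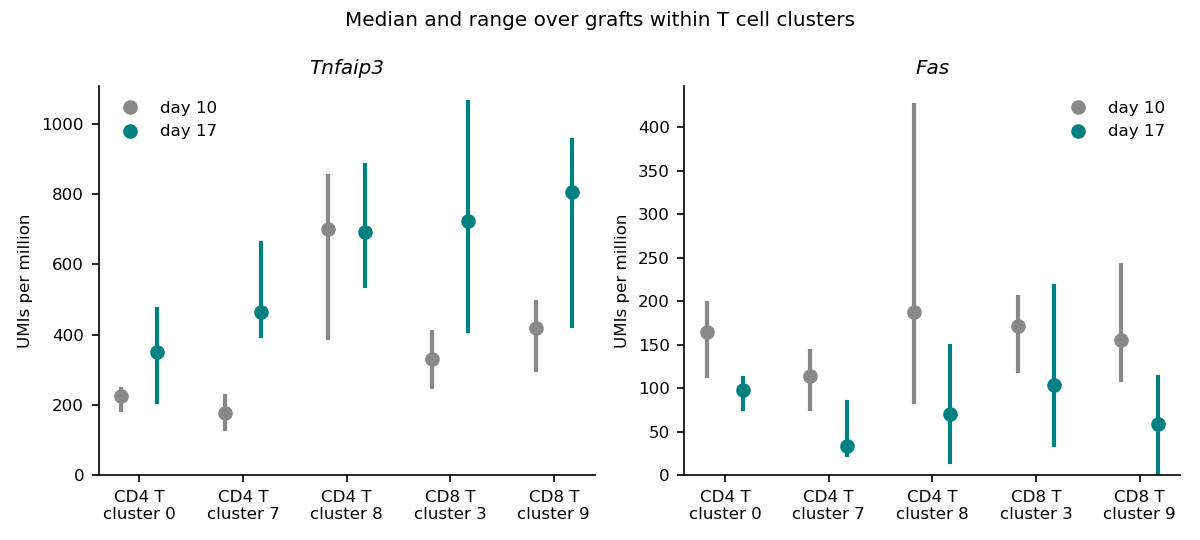
Median (point) and range (line) over grafts with at least 10 cells of Tnfaip3 and Fas, in CPM, in the CD4 clusters 0, 7 and 8 and the CD8 clusters 3 and 9, at day 10 and day 17. Tnfaip3 is level in CD4 cluster 8 (702 and 693) and higher at day 17 in the other 4, and the Fas median is lower at day 17 in all 5.

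Tnfrsf1b was the receptor that rose. Its log2 difference was positive in 9 of 9 types for the mean of both genotypes (0.18 to 0.74) and called in 4. In macrophages the WT grafts had 85.5, 72.3, 70 and 84.6 CPM at day 10 and 135, 109, 122 and 139 CPM at day 17, and the Rnls mut grafts 90.5, 82.4, 97.7 and 67.7 and then 144, 162, 128 and 136 CPM. The days did not overlap in either genotype, as for 25.7% (WT) and 38.8% (Rnls mut) of genes in macrophages (0.57 ± 0.09 SE, adjusted p = 6.36e-05).

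In CD4 T cells the difference was 0.53 ± 0.12 (SE, adjusted p = 0.0011), with overlap in WT grafts, where 1 graft of day 17 (60.7 CPM) lay among those of day 10 (58 to 86.1). It was 0.50 ± 0.13 in CD8 T cells (adjusted p = 0.0042, and 0.0671 without WT day 17 replicate 1) and 0.53 ± 0.16 in monocytes (adjusted p = 0.0298, lost in 6 alternatives with p up to 0.247). In Treg it was called in WT grafts at 1.07 ± 0.31 (adjusted p = 0.0215, lost in 4 alternatives with p up to 0.289). It was not called there in Rnls mut grafts (0.07, adjusted p = 0.923) or for the mean of both genotypes (0.57, adjusted p = 0.0608). Over all CD45+ cells the gene went from 64.9 to 86.8 CPM at day 10 to 117 to 147 CPM at day 17 (0.65 ± 0.06 SE, adjusted p = 7.27e-07). Tnfrsf1a was called in none of 4 types and rose over all CD45+ cells by 0.37 ± 0.12 (adjusted p = 0.0176, and 0.0518 without the 5% of cells with most UMIs), beside the growing share of macrophages given above.

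Macrophage RNA in lymphocytes rose as well, which touches genes that macrophages hold. The 5 macrophage markers summed in CD4 T cells to 27.8 to 37.7 CPM (WT) and 15.3 to 23.7 CPM (Rnls mut) at day 10, and to 50.6 to 74.2 and 193 to 244 CPM at day 17. Its part in Tnfrsf1b of T cells was not tested.

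Fas was lower at day 17 in 4 of 9 types and higher in none. In CD4 T cells it went from 132, 182, 110 and 161 to 57.5, 16.5, 104 and 118 CPM in WT grafts and from 167, 156, 135 and 128 to 51.5, 85, 120 and 60.4 CPM in Rnls mut grafts. The WT days overlapped and the Rnls mut days did not, as for 24.3% of genes in CD4 T cells (-1.07 ± 0.23 SE, adjusted p = 0.00235). CD8 T cells went from 114, 188, 165 and 201 to 89.8, 25, 155 and 110 CPM and from 111, 178, 154 and 157 to 61, 110, 94.7 and 66.4 CPM (-1.01 ± 0.23 SE, adjusted p = 0.00393), with the same pattern of overlap. The Rnls mut days did not overlap for 15.8% of genes in CD8 T cells. Treg of Rnls mut grafts had 136, 374, 202 and 146 CPM at day 10 and 92.4, 78.4 and 61.0 CPM at day 17 (-1.45 ± 0.41 SE, adjusted p = 0.0233, lost in 6 alternatives with p up to 0.158). Treg were not called in WT grafts (0.13, adjusted p = 0.883) or for the mean of both genotypes (-0.66, adjusted p = 0.101). Over all CD45+ cells Fas fell by 0.82 (SE 0.12, adjusted p = 3.5e-05).

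Graft medians of Fas were lower at day 17 within each T cell cluster with enough cells: 164 and 97.7 CPM in CD4 cluster 0, 114 and 33.8 in cluster 7, 187 and 69.8 in cluster 8, and 171 and 104 in CD8 cluster 3. In macrophages it fell by 0.35 (SE 0.09, adjusted p = 0.0044). With library totals in place of TMM scaling this value was -0.20 and not called (adjusted p = 0.102).

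DC had the steepest fall of Fas, from 123, 84.2, 90.1 and 66.7 to 8.97, 46.5, 12.4 and 31.7 CPM in WT and from 120, 111, 67.9 and 122 to 43, 21.1, 44.9 and 0 CPM in Rnls mut grafts. The days did not overlap in either genotype, as for 14.9% (WT) and 19.8% (Rnls mut) of genes in DC (-1.75 ± 0.28 SE, 3.37-fold, adjusted p = 0.000151). The make-up of DC differed between days, however. DC clusters 17 and 21, the ones with most Fas, had no graft with 10 cells at day 17. In cluster 19, the only one with such grafts on both days (6 each), the median was 18.1 CPM (6.86 to 43.2) and then 6.24 CPM (0 to 10.4).

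Among the ligands, Fasl rose in CD4 T cells and was not called in CD8 T cells or NK cells. CD4 T cells went from 117, 96.4, 122 and 113 to 194, 272, 156 and 121 CPM in WT and from 144, 94.7, 121 and 120 to 158, 155, 172 and 158 CPM in Rnls mut grafts (0.45 ± 0.11 SE, adjusted p = 0.00224). The WT days overlapped at 121 and 122 CPM, and the Rnls mut days did not overlap, as for 24.3% of genes in CD4 T cells. Within genotypes the rise was called in WT grafts (0.555, adjusted p = 0.0133, edgeR) and not in Rnls mut grafts (0.35, adjusted p = 0.111). For the mean of both genotypes the log2 difference was 0.02 ± 0.09 (SE) in CD8 T cells and 0.05 ± 0.16 in NK cells.

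Ltb fell in NK cells (-1.01 ± 0.23 SE, adjusted p = 0.00365), from 103 to 250 CPM at day 10 to 14.9 to 135 CPM at day 17, with overlap. It fell in CD8 T cells (-0.44 ± 0.14 SE, adjusted p = 0.0266). In Treg the mean of both genotypes was -0.42 ± 0.13 (SE, adjusted p = 0.0216). That mean joined a called fall of 1.16 in Rnls mut grafts and a value of 0.32 in WT grafts that was not called. The call in CD8 T cells and that of the mean in Treg were lost with library totals in place of TMM scaling. In monocytes it was higher at day 17 (2.04 ± 0.55 SE, adjusted p = 0.0142) on 12 UMIs of 720061 in WT and 7 of 372974 in Rnls mut grafts, with 1 graft of each genotype at 0. The call was lost without replicate 1 of either group of day 17 (adjusted p = 0.337 without that of WT, 0.0592 without that of Rnls mut).

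Tnf moved in different types. It rose in CD4 T cells of WT grafts by 0.66 ± 0.19 (SE, adjusted p = 0.0143), not called without WT day 17 replicate 3 (adjusted p = 0.0913). In macrophages of Rnls mut grafts it fell from 82, 83.9, 38.4 and 51 to 29.7, 34.4, 33.7 and 42.6 CPM, with overlap (-1.07 ± 0.36 SE, adjusted p = 0.0286, lost in 7 alternatives with p up to 0.0938). Lta over all CD45+ cells went from 3.84, 7.84, 8.85 and 4.45 to 3.77, 2.84, 4.63 and 2.51 CPM in WT and from 9.77, 9.4, 7.92 and 8.4 to 1.91, 2.05, 1.16 and 1.72 CPM in Rnls mut grafts (-1.61 ± 0.21 SE, adjusted p = 8.89e-06). The Rnls mut days did not overlap, as for 45.7% of all genes there. In CD4 T cells, which held most of it, Lta was not called (-0.63, adjusted p = 0.261).

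**Figure D5:**
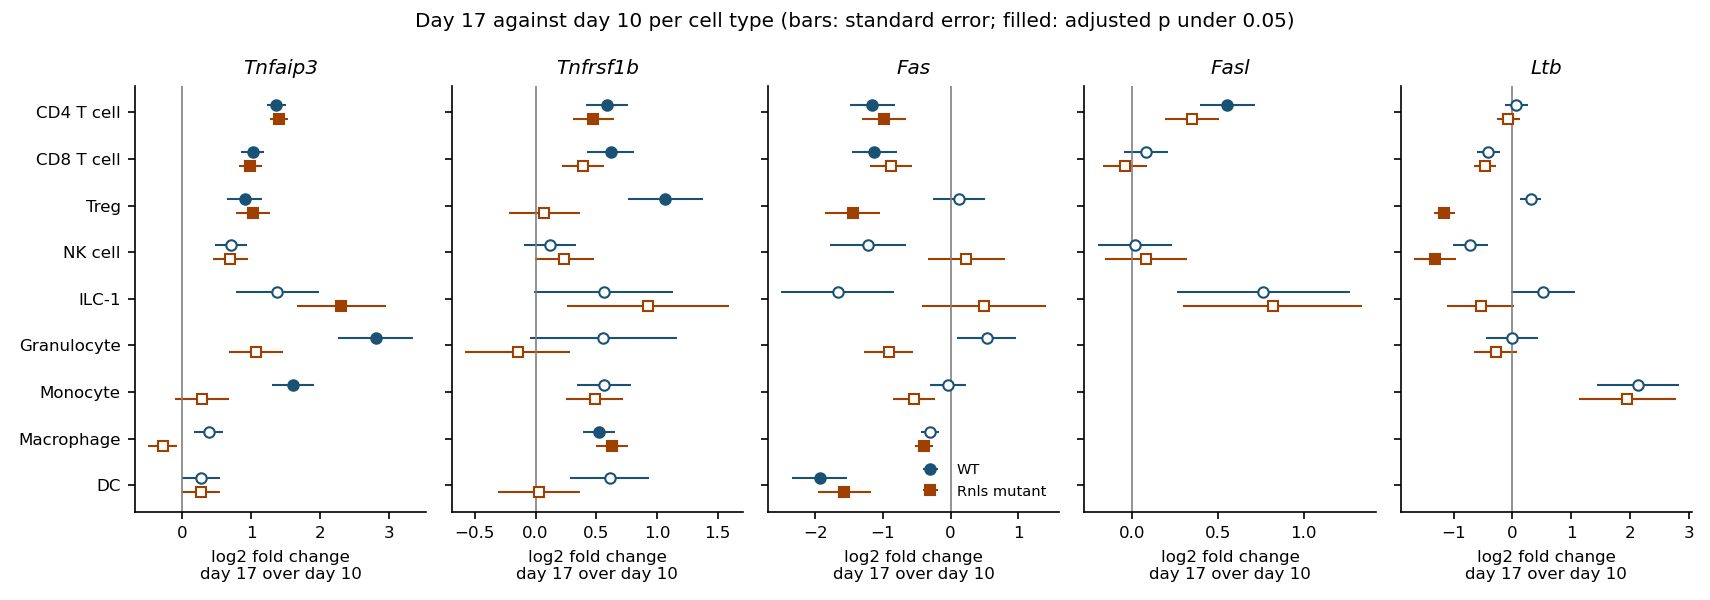
Log2 fold change of day 17 over day 10 with its standard error in WT (circles) and Rnls mut grafts (squares) for Tnfaip3, Tnfrsf1b, Fas, Fasl and Ltb in up to 9 cell types, filled where the adjusted p was under 0.05. Called values of Tnfaip3 and Tnfrsf1b lie right of 0, those of Fas left of 0, and Ltb is called in Treg and NK cells of Rnls mut grafts.

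The lists of genes around the receptors were also compared between the days (mean of both genotypes). Of all genes 18.9% were higher and 17.6% lower at day 17 in CD4 T cells, 10.8% and 11.0% in CD8 T cells, 8.19% and 7.98% in Treg, and 25.3% and 25.1% in macrophages, and differences between cell types were not tested. In release and mRNA decay, 4 of 6 genes rose in CD4 T cells and 3 in CD8 T cells, where none fell, with list medians of 0.93 and 0.68 against 0.014 and 0.010 for all genes. These were Zfp36l1 (1.47 and 1.42) and Zfp36 (1.33 and 1.72), whose products bind and destabilise Tnf and other mRNAs, Zfp36l2 (1.40 and 1.09) and, in CD4 T cells, the RNase gene Zc3h12a (0.53). Rhbdf2, which brings the TNF-releasing protease ADAM17 to the surface, fell in CD4 T cells (-0.63). In Treg 3 of 4 tested genes rose, Adam17 (0.83) among them.

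In CD4 T cells the counts of the next 3 lists lay nearer to these shares. In the receptor complex 4 of 13 genes rose and 1 fell in CD4 T cells (median 0.029). Birc2 (1.20) and Birc3 (1.03), the ubiquitin ligases of the TNFR1 complex, and the kinase gene Ikbkb (0.78) rose, and the adaptor gene Traf2 (-0.43) fell. In macrophages Birc3 (0.87), Tab2 (0.69) and Ripk1 (0.56) rose, and Traf1 (-1.33), Traf2 (-0.49) and Sharpin (-0.44) fell (median -0.020).

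The death branch had 2 of 11 genes up and 3 down in CD4 T cells (median -0.23), with the survival gene Bcl2 (1.24) among those up. Bcl2 rose in CD8 T cells as well, by 0.95. In macrophages 5 of 14 fell and 1 rose (median -0.19). Ripk3 (-0.96), the kinase gene of necroptosis, and Bax (-0.67), a gene of the mitochondrial death pathway, were among those that fell, and the caspase inhibitor gene Xiap (0.32) rose.

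For NF-kB and its feedback, 4 of 16 genes rose and 2 fell in CD4 T cells (median 0.018), with Nfkb1 (0.51), Map3k14 (0.83) and Nfkbia (0.41) up and Otulin (-0.76) and Nfkbib (-0.67) down. In macrophages 3 rose and 7 fell (median -0.10), and Nfkbie (-1.07) and Nfkb2 (-0.50) were among those that fell. Of the other ligands and receptors in macrophages, 2 of 5 fell, Tnfsf15 (-2.18), the gene of TL1A, and Tnfsf10 (-0.90), the gene of TRAIL. Of 2 tested in CD4 T cells 1 fell, Tnfrsf25 (-0.70), the receptor of TL1A. Over the 5 lists, the adjusted p of each gene named was at most 0.0279, that of Traf2 in CD4 T cells.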

How the data were processed

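Droplet 3′ single-cell RNA libraries of sorted CD45+ cells were analysed, 4 in all, each with 4 hashtagged grafts. The authors deposited a table of raw UMI counts per gene and cell together with each cell's graft, cluster and cell type, and no values of their own comparisons were used. Cell Ranger and the build mm10 are named in the submitters' processing notes, and versions, cell filters and the treatment of doublets are not given in the sources used here. No doublet caller was run. The fewest UMIs in a deposited cell were 1001, and the 1146 cells in the top 5% of UMIs were left out as an alternative, since doublets are among such cells. The hashtag libraries were not analysed here.

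Counts were summed per graft and cell type, leaving out sums of under 10 cells, and tested with edgeR 4.0.16 in R 4.3.3 (TMM, filterByExpr, robust glmQLFit, glmQLFTest). All 4 groups entered 1 fit per cell type, for the 9 types with at least 2 such grafts in every group. Adjustment (Benjamini-Hochberg, threshold 0.05) ran over all genes tested in a type and comparison. Members under the filter, or in the Stem-Progenitor type that was not fitted, were tested by exact permutation of graft labels where they had at least 20 UMIs. Shares of cells with a UMI are expected values after thinning to 1000 UMIs. Scripts used Python 3.11.15 and SciPy 1.17.1, and the test was checked on simulated counts. Free RNA was not removed. As likeness, the 3 genes with the highest Pearson correlation per member were named among genes with at least 500 UMIs. Of each pathway list, at most 4 genes per direction with the smallest p were eligible to be named, and some are not reported here.

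The alternatives were DESeq2 1.42.0, library totals without TMM, no filter on low counts, cell minimums of 1 and 20, the top 5% of cells left out, hashtag number as a block and each graft left out in turn. Promoters came from RefSeq tables of GRCm38.p6. The members and the gene lists were chosen with earlier results of these data known. Day and genotype comparisons share grafts, so their values are given side by side only.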

Additional observations from a re-analysis of the deposited data

Results flagged for a closer look

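In 6 of 144 groups of 4 grafts in which a member was tested, 1 graft stood apart from the other 3 by Dixon's criterion, which chance alone flags in about 1 in 20 groups. Lta in CD4 T cells was 70.1 CPM in WT day 17 replicate 3 (35 UMIs in 69 cells) against 10.7 to 13.5 in the other grafts of its group. Tnfaip3 in CD4 T cells was 799 CPM in WT day 17 replicate 1 against 564 to 597. Tnf in CD8 T cells was 49.5 CPM in Rnls mut day 10 replicate 2 against 33.2 to 34.2, with no WT graft of that day above 24.6. Fasl was 172 CPM against 155 to 158 in CD4 T cells of Rnls mut day 17 replicate 3, and 248 CPM against 302 to 309 in CD8 T cells of Rnls mut day 10 replicate 3. Tnfrsf1a in monocytes was 106 CPM in Rnls mut day 10 replicate 3 against 151 to 159.

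The genotype difference of Ltb in Treg changed between the days by -1.472 on the log2 scale (SE 0.253, adjusted p = 0.000806, edgeR), from 0.91 at day 10 to -0.56 at day 17.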

How the results depend on the processing

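None of the called fold changes of members changed sign in an alternative that could be fitted. Those not called were mostly not followed through the alternatives. Of 66 called fold changes of members, 35 kept the call in every alternative and 31 lost it in at least 1. Among summaries, 2 medians moved, both in ILC-1 at a minimum of 20 cells (Fasl 305 and Tnfaip3 1459 CPM). That minimum left 6 cell types without Treg, ILC-1 and granulocytes, so that 0 pairs were called at day 10 and 0 for the difference between days.

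The counts of all genes called over the types moved most. At day 10 the 65 became 125 with DESeq2, 190 without the filter on low counts and 131 with the replicate block, and 46 to 140 leaving out 1 graft. At day 17 the 82 became 175 without the filter, and 51 to 95 leaving out 1 graft. For the mean of days the 5 became 12 with DESeq2, 52 without the filter, 1 without the top 5% of cells and 23 with the block, and 1 to 9 leaving out 1 graft. For the difference between days the 175 became 291 without the filter, and 124 to 194 leaving out 1 graft. The 6 genes called in Treg at day 10 became 2 with DESeq2, 10 without the filter, 2 with a minimum of 1 cell, 2 without the top 5% and 2 to 13 leaving out 1 graft. The 37 for the difference became 15, 14 with the minimum of 1 cell, 20 without the top 5%, 19 with the block and 16 to 50.

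Leaving out 1 graft gave 1 called pair of member and type at day 10 throughout, 1 to 2 for the difference (2 without WT day 17 replicate 3), 8 to 17 between days in WT grafts (8 without WT day 17 replicate 1) and 4 to 16 in Rnls mut grafts (4 without Rnls mut day 17 replicate 2, 8 without replicate 3 of either day). In all CD45+ cells, called members between days in WT grafts were 3 to 5 (3 without WT day 10 or day 17 replicate 2), and 3 without the top 5% of cells. The causes were not tested.

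The study describes grafts as paired, and hashtag numbers are shared by both genotypes, but nothing given says that a number marks a mouse. Deviations of same-numbered grafts correlated from -0.389 to 0.484, and CD4 T cells at day 17 were the only set of 6 in which all 4 grafts matched their own number best. As a pairing, the number was used in the replicate block only, where Ltb in Treg at day 10 was 0.887 (adjusted p = 0.00516) and the difference between days -1.372 (adjusted p = 0.00961). Precision is limited by few UMIs: Lta had 585 in all, and Treg, ILC-1 and granulocytes held few cells per graft.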
